A study of Danio rerio with 12 samples.

Results

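The crystallins are the structural proteins of the eye lens, and 45 crystallin genes were measured in whole zebrafish larvae exposed to silver. The members are all genes whose symbol in the array's platform annotation starts with cryaa, cryab, cryba, crybb, crygm, crygn or crygs. They comprise 3 alpha, 11 beta and 31 gamma crystallin genes, read by 82 probes, among 28497 features (named genes and unnamed probes) on the array. Of the 45 genes, 44 had enough values to be tested among 25264 tested features, and crygs4 did not.

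Two-colour Agilent arrays set RNA of exposed larvae against RNA of control larvae on the same probes. The AgNO3 group was exposed to silver nitrate and the AgNPs group to silver nanoparticles, each at 0.01 mg/L for 15 days starting at 6 days post fertilization. The control larvae were kept in conditioned water with methylene blue and no silver. All 3 groups were wild-type fish of the AB strain, aged 21 days, and RNA came from whole larvae with no dissection of the eye. Each exposed group had 6 arrays. On replicates 1 to 3 the exposed RNA was labelled with Cy5, and on replicates 4 to 6 with Cy3. By the sample codes, 6 control samples each met 1 AgNO3 and 1 AgNPs sample, so both comparisons share their controls. The number of tanks per group is not stated in the labels, so that p-values cover the spread between these samples alone, some of which may be technical.

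A lens is made of elongated fiber cells that fill with crystallin protein, lose their nuclei and then keep that protein for life, under a thin epithelium that supplies new fibers. Alpha crystallins belong to the small heat shock proteins and act as chaperones that hold damaged proteins in solution. Beta and gamma crystallins share a common fold; beta crystallins assemble into oligomers, gamma crystallins are monomers, and the methionine-rich gamma M crystallins are typical of the dense lenses of fish.

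The values are log2 ratios of exposed over control RNA, so 0 means equal signal in both channels. The base of the logarithm and the direction were taken from the design and are not stated with the values. Whether the Cy3-exposed arrays had been turned to this direction before deposit is not settled, and values were used as deposited. Array medians lay between -0.01 and 0.02. The interquartile range of all features was 0.196 to 0.306 on the AgNO3 arrays and 0.0946 to 0.271 on the AgNPs arrays, where replicates 3 to 6 were the narrowest. Ratios give no expression level, so the labelled tissue could not be checked against marker levels. In RNA from whole larvae fewer lens cells and less crystallin RNA per cell cannot be told apart.

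No crystallin passed the test in either exposure or between the exposures. At a limma adjusted p under 0.05 (Benjamini-Hochberg over all features), 0 of 44 crystallins were called for AgNO3 against control, where 0.0119% of all features were called. For AgNPs against control 0 of 44 were called, with 0.0237% of all features, and for AgNO3 minus AgNPs 0 of 44, with 0% of all features. The smallest adjusted p of a crystallin was 0.565 for AgNO3, 0.674 for AgNPs and 0.858 for the difference.

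At an unadjusted p under 0.05, 2 of 44 crystallins stood out in each comparison, or 4.55%. The share over all features was 8.25% for AgNO3, 4.24% for AgNPs and 4.22% for the difference. For AgNO3 these were crygm4, with a fitted value above 0, and crygn1, below 0. For AgNPs they were crygm2d3 and crygm2d4, both above 0, and for the difference crygm2d3 and crygn1, both below 0.

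The fitted value was above 0 for 28 of 44 crystallins in the AgNO3 group, against 48.2% of all features. It was above 0 for 29 of 44 in the AgNPs group, against 51.7% of all features, and for 18 of 44 in AgNO3 minus AgNPs, against 48.2%. Of the crystallins with 6 values, 1 of 40 lay on 1 side of 0 on every AgNO3 array (background 4.55%) and 0 of 41 on every AgNPs array (background 4.88%). The AgNO3 and AgNPs arrays did not overlap for 0 of 40 crystallins with 12 values, against 0.381% of such features.

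**Figure D1:**
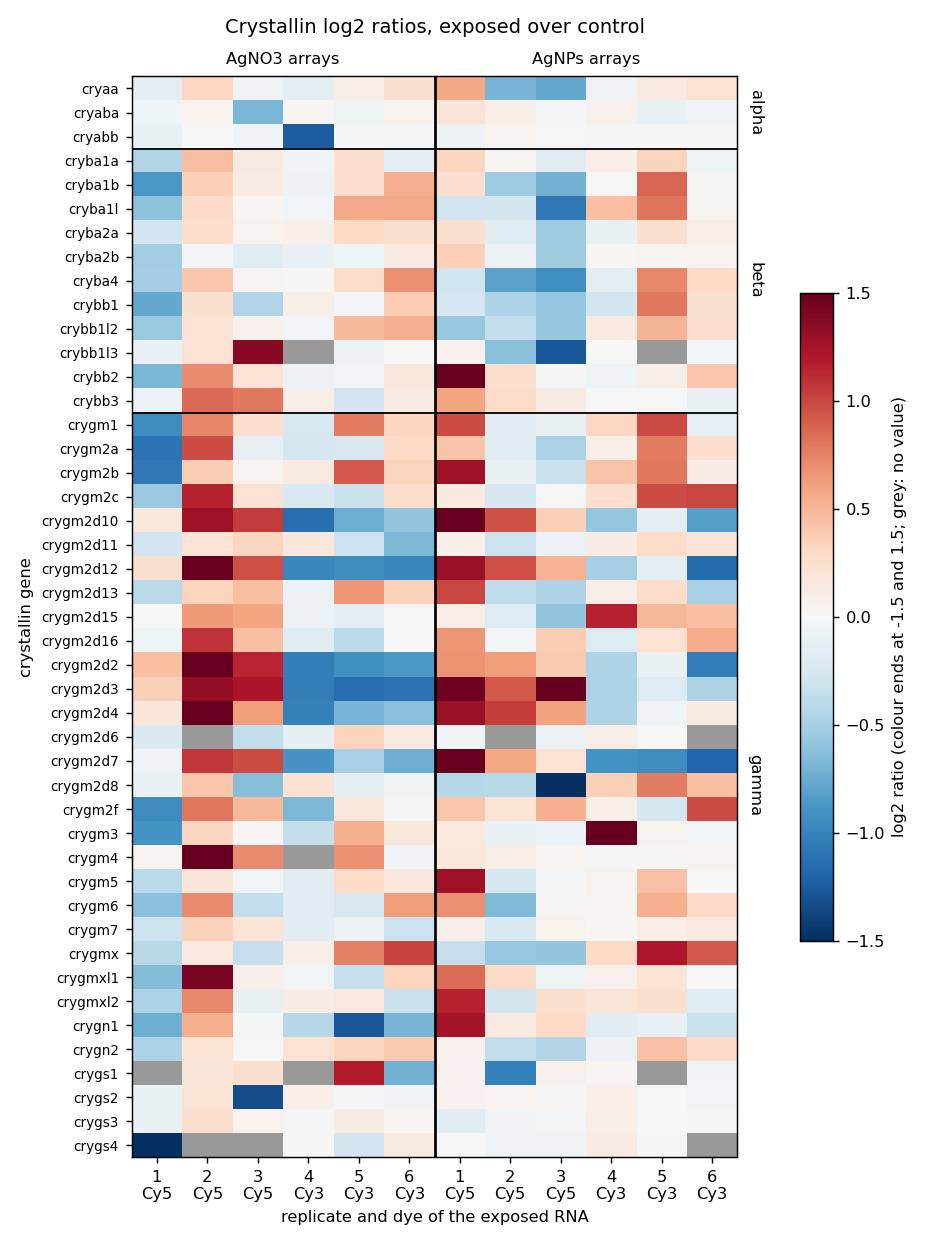
Log2 ratio of exposed over control RNA (colour) of every crystallin gene (rows, by class) on the 6 AgNO3 and 6 AgNPs arrays (columns, by replicate). Single arrays shift many crystallins together, such as AgNO3 replicate 2, where 41 of 43 measured members lay above 0, and AgNO3 replicate 1, where 7 of 43 did.

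Of the 3 alpha crystallins, cryaba and cryabb had log2 ratios near 0 on most arrays of both groups. Some of these near-0 values were shared exactly by probes of different genes on the same array. On AgNPs replicate 4, a cryabb probe, a crybb3 probe and a crygm6 probe all read 0.03699. On AgNPs replicate 3, a cryaba probe and both crygs3 probes read -0.0298455. What such shared values stand for was not tested, so they do not show a stable level. The third alpha crystallin, cryaa, ran from -0.15 to 0.31 on the AgNO3 arrays and from -0.76 to 0.58 on the AgNPs arrays. The gene cryaa encodes alphaA-crystallin of the lens. It had log2 ratios of -0.15, 0.31, -0.06, -0.15, 0.10 and 0.24 on the AgNO3 arrays, and 0.58, -0.70, -0.76, -0.06, 0.14 and 0.23 on the AgNPs arrays. The groups overlapped, and the widest values were on the Cy5-exposed AgNPs arrays. On AgNPs replicate 3 the 4 probes of cryaa read 0.34, -0.29, -2.95 and -0.16. Its fitted mean was 0.05 (SE 0.16) for AgNO3 and -0.09 (SE 0.16) for AgNPs, a difference of 0.14 (95% interval -0.35 to 0.63). Leaving out 1 array moved it over -0.03 to 0.12 for AgNO3 and over -0.27 to 0.03 for AgNPs.

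Zebrafish carry a pair of alphaB-crystallin genes, cryaba and cryabb. The gene cryaba had -0.07, 0.05, -0.69, 0.03, -0.06 and 0.05 on the AgNO3 arrays, and 0.19, 0.10, -0.03, 0.06, -0.10 and -0.05 on the AgNPs arrays. All arrays but AgNO3 replicate 3 lay between -0.10 and 0.19. The fitted difference was -0.14 (95% interval -0.43 to 0.14), and without AgNO3 replicate 3 its AgNO3 mean was 0.00, against -0.12 with it.

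The gene cryabb had -0.10, -0.00, -0.06, -1.25, -0.02 and -0.02 on the AgNO3 arrays, and -0.07, 0.05, 0.01, -0.01, 0.02 and 0.02 on the AgNPs arrays. It was the crystallin below 0 on every AgNO3 array, but 5 of these 6 values lay within 0.10 of 0. Its fitted difference was -0.24 (95% interval -0.67 to 0.18), and its AgNO3 mean was -0.04 without replicate 4, against -0.24 with it. With the Cy3-exposed arrays turned, that mean was 0.19. The value on replicate 4 came from 1 probe at -2.64, while another probe of the gene read 0.14 and the third was empty. On AgNO3 replicate 3, the cryaba probes likewise read -1.27 and -0.11.

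The 11 beta crystallins had fitted values from -0.13 to 0.28 for AgNO3, with 9 of 11 above 0, and from -0.37 to 0.59 for AgNPs, with 3 of 11 above 0. Their median was 0.11 for AgNO3 and -0.04 for AgNPs, and the median of their differences was 0.10, with 8 of 11 above 0. Leaving out 1 array moved the median over 0.02 to 0.21 for AgNO3, over -0.16 to 0.07 for AgNPs, where it was positive without AgNPs replicate 3, and over 0.02 to 0.22 for the difference. Over all features these medians were -0.01, 0.00 and -0.01. No single beta crystallin passed the test in any comparison.

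The widest fitted differences among them were in crybb1l3, with a positive sign, and crybb2, with a negative one; both are basic beta crystallins. The gene crybb1l3 had -0.10, 0.22, 1.36, -0.07 and -0.00 on AgNO3 replicates 1, 2, 3, 5 and 6, and 0.07, -0.63, -1.27, 0.01 and -0.05 on AgNPs replicates 1, 2, 3, 4 and 6. The values near 0 overlapped, and replicate 3 of each group lay farthest out, on opposite sides. The gene is read by 1 probe, so these values could not be set against another probe. The fitted difference was 0.65 (95% interval -0.19 to 1.49). It was 0.35 without AgNO3 replicate 3 and 0.41 without AgNPs replicate 3.

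The gene crybb2 had -0.69, 0.71, 0.22, -0.08, -0.04 and 0.15 on the AgNO3 arrays, and 2.86, 0.27, -0.02, -0.06, 0.08 and 0.40 on the AgNPs arrays. A single AgNPs array stood apart, and on it the 2 probes of the gene read 5.34 and 0.37. The AgNPs mean was 0.59 (SE 0.32) with that array and 0.14 without it, and the difference was -0.54 (95% interval -1.55 to 0.47).

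The acidic beta crystallin cryba4 had -0.51, 0.41, 0.04, 0.02, 0.27 and 0.68 on the AgNO3 arrays, and -0.30, -0.80, -0.92, -0.14, 0.72 and 0.30 on the AgNPs arrays. The ranges overlapped, with 3 of the 4 lowest values on AgNPs replicates 1 to 3. The gene crybb1l2, a basic beta crystallin, had -0.56, 0.22, 0.06, -0.04, 0.48 and 0.55 on the AgNO3 arrays, and -0.57, -0.37, -0.58, 0.14, 0.52 and 0.25 on the AgNPs arrays. Both genes were lowest on Cy5-exposed arrays in each group. The fitted difference was 0.34 (95% interval -0.15 to 0.83) for cryba4 and 0.22 (95% interval -0.13 to 0.58) for crybb1l2.

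Among the other beta crystallins, crybb3 averaged 0.25 (SE 0.12) for AgNO3 and 0.15 (SE 0.12) for AgNPs. The acidic cryba2a averaged 0.11 (SE 0.10) for AgNO3 and differed by 0.15 between the exposures, and its AgNO3 mean was -0.10 with the Cy3-exposed arrays turned. The acidic cryba2b averaged -0.13 (SE 0.10) for AgNO3. The gene cryba1l, now named cryba1l1, differed by 0.19 (95% interval -0.31 to 0.69).

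The 30 tested gamma crystallins had fitted values from -0.44 to 0.86 for AgNO3, with 18 of 30 above 0 and a median of 0.02. For AgNPs they ran from -0.18 to 0.48, with 24 of 30 above 0 and a median of 0.16. The median of their differences was -0.13, with 9 of 30 above 0. Leaving out 1 array moved the median over -0.11 to 0.15 for AgNO3, where it was negative without AgNO3 replicate 2, over 0.05 to 0.24 for AgNPs, and over -0.30 to -0.02 for the difference. Within the class, 22 of 25 gamma M genes were above 0 for AgNPs and 15 of 25 for AgNO3. Gamma N had 1 of 2 above 0 in each exposure, and gamma S had 2 of 3 for AgNO3 and 1 of 3 for AgNPs.

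**Figure D2:**
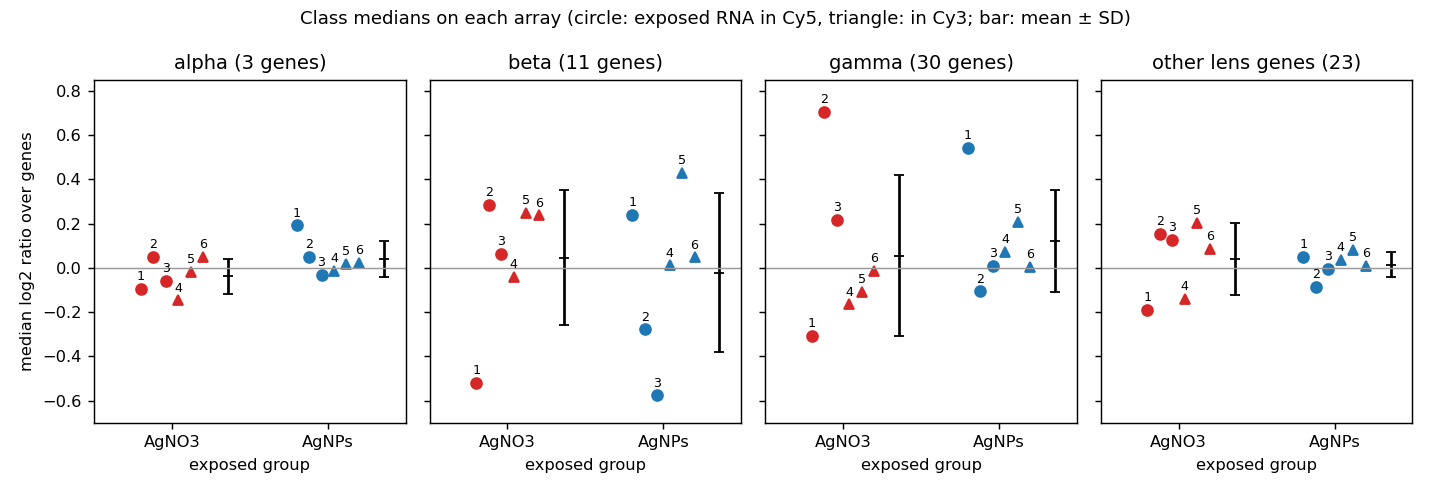
Median log2 ratio of exposed over control RNA of each crystallin class and of 23 other lens genes (panels) on each array, for AgNO3 (left) and AgNPs (right), where numbers are replicates, circles and triangles mark exposed RNA in Cy5 and Cy3, and bars give the mean ± SD over arrays. The 6 arrays of each group straddle 0 in every class, with gamma medians from -0.31 to 0.71 for AgNO3 and from -0.11 to 0.54 for AgNPs.

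The per-array medians show how far these class values depend on single arrays. The gamma median was -0.31, 0.71, 0.22, -0.17, -0.11 and -0.01 on the AgNO3 arrays, and 0.54, -0.11, 0.01, 0.07, 0.21 and 0.00 on the AgNPs arrays. The beta median was -0.52, 0.29, 0.06, -0.04, 0.25 and 0.24 on the AgNO3 arrays, and 0.24, -0.28, -0.58, 0.01, 0.43 and 0.05 on the AgNPs arrays. In both classes the groups overlapped, and the arrays of 1 group spread over more than the distance between the groups. The SD of the array medians was 0.364 for AgNO3 and 0.230 for AgNPs in gamma, and 0.304 for AgNO3 and 0.360 for AgNPs in beta. With the Cy3-exposed arrays turned, the gamma median was 0.08 for AgNO3 and -0.01 for AgNPs, with a median difference of 0.13, and the beta median was -0.11 for AgNO3 and -0.31 for AgNPs, with a median difference of 0.11. Alpha medians were tighter, with an SD of 0.079 for AgNO3 and 0.080 for AgNPs, and ran from -0.15 to 0.05 for AgNO3 and from -0.03 to 0.19 for AgNPs.

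The gamma M gene crygm2d3 had the smallest p of the difference among all crystallins. It had 0.36, 1.32, 1.23, -1.04, -1.14 and -1.11 on the AgNO3 arrays, and 1.46, 0.92, 1.61, -0.47, -0.20 and -0.46 on the AgNPs arrays. Every Cy5-exposed array was above 0 and every Cy3-exposed array below 0, in both groups, so the ranges overlapped widely. The fitted mean for AgNPs was 0.48 (SE 0.13, limma adjusted p = 0.674), and the difference was -0.54 (95% interval -0.94 to -0.14, unadjusted p = 0.0125, limma adjusted p = 0.858). With the Cy3-exposed arrays turned, the difference was 0.18. It was -0.22 with AgNPs replicates 3 to 6 left out. That setting keeps no Cy3-exposed AgNPs array, so its dye term came from the AgNO3 arrays alone.

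The gene crygm2d4, of the same gamma M subgroup, averaged 0.42 (SE 0.18) for AgNPs and differed by -0.39 (95% interval -0.95 to 0.17), or by 0.26 with the Cy3-exposed arrays turned. The gene crygm4 rested on few probes' values: it read 0.05, 3.16, 0.70, 0.68 and -0.05 on AgNO3 replicates 1, 2, 3, 5 and 6, against 0.16, 0.09, 0.05, -0.01, 0.01 and 0.05 on the AgNPs arrays. The AgNPs values lay between -0.01 and 0.16, but on AgNPs replicate 2 the 3 probes read 0.06, -0.54 and 0.75. On AgNPs replicates 1 and 3, a crygm4 probe read 0.027882 and 0.0216895, exactly as a cryba1l probe did. The narrow AgNPs range may therefore not show an unchanged crygm4 level, which was not tested. On AgNO3 replicates 3 and 5, 1 crygm4 probe read 1.45 and 1.40, while another read -0.04 on both. Its AgNO3 mean of 0.86 (SE 0.36) was 0.35 without replicate 2, where a single probe had a value, and its difference of 0.80 (95% interval -0.29 to 1.89) was 0.29. Of the other gamma M genes, crygmx averaged 0.21 (SE 0.15) for AgNO3, crygm2d16 averaged 0.27 (SE 0.16) for AgNPs, and crygm2f differed by -0.36 (95% interval -1.04 to 0.32). With the Cy3-exposed arrays turned, crygmx averaged -0.41 for AgNO3, crygm2d16 averaged 0.08 for AgNPs and crygm2f differed by 0.09.

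Gamma N crystallins are an early branch between the beta and gamma families. The gene crygn1 had -0.74, 0.54, -0.03, -0.43, -1.27 and -0.70 on the AgNO3 arrays, and 1.24, 0.13, 0.30, -0.16, -0.12 and -0.33 on the AgNPs arrays. It was below 0 on 5 of 6 AgNO3 arrays and above 0 on the Cy5-exposed AgNPs arrays, and the groups overlapped. Its fitted mean was -0.44 (SE 0.18) for AgNO3 and 0.18 (SE 0.18) for AgNPs, a difference of -0.61 (95% interval -1.17 to -0.06, unadjusted p = 0.0322, limma adjusted p = 0.858). The AgNO3 mean was -0.29 without replicate 1 and 0.36 with the Cy3-exposed arrays turned. With them turned the AgNPs mean was 0.38 and the difference -0.02. The gene crygn1 is read by 1 probe. The gene crygn2 averaged 0.11 for AgNO3 and -0.02 for AgNPs (SE 0.10 each), and -0.20 for AgNO3 and -0.23 for AgNPs with those arrays turned.

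Gamma S crystallin is the gamma crystallin typical of the later lens cortex in mammals. The gene crygs1 averaged 0.23 (SE 0.30) for AgNO3 and -0.16 (SE 0.27) for AgNPs, with -0.12 for AgNO3 without replicate 5 and 0.03 for AgNPs without replicate 2. The gene crygs3 averaged 0.06 for AgNO3 and -0.03 for AgNPs (SE 0.05 each). The gene crygs2 averaged -0.20 (SE 0.16) for AgNO3 and 0.03 (SE 0.16) for AgNPs. Its AgNO3 mean was 0.03 without replicate 3, where its 2 probes read -2.67 and 0.01.

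**Figure D3:**
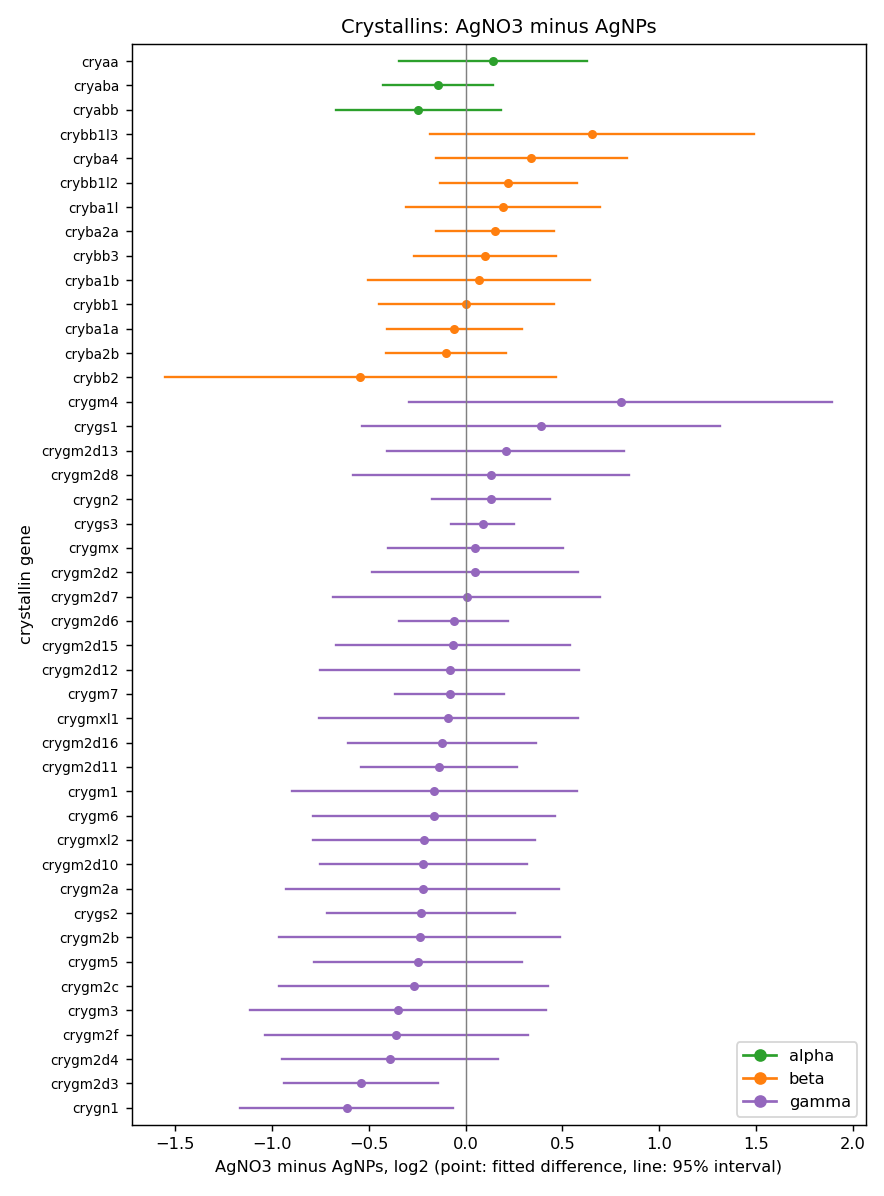
Fitted difference AgNO3 minus AgNPs (log2, points) with its 95% interval (lines) for each tested crystallin, grouped by class. The intervals of crygm2d3 and crygn1 leave out 0 before any adjustment; no crystallin passed after it.

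The median crystallin varied more between arrays than the median feature. The median SD over the 6 arrays was 0.497 for AgNO3 and 0.519 for AgNPs among crystallins, against 0.288 and 0.203 over all features. It was 0.330 and 0.252 among further lens genes, 0.279 and 0.394 among skeletal muscle genes, and 0.239 and 0.260 among photoreceptor genes. Arrays of both dye orientations enter this SD, so it also holds the spread of genes that followed the dye. The median absolute log2 ratio of crystallins was between 0.981 and 3.18 times that of all features on the AgNO3 arrays, and between 2.57 and 7.34 times on the AgNPs arrays. The value of 7.34 was on AgNPs replicate 3, 1 of the 4 AgNPs arrays with a narrow overall spread.

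Within beta and gamma the members varied together from array to array. The mean pairwise Pearson r over 12 arrays was 0.510 within beta and 0.297 within gamma, against 0.0256 within alpha and 0.00155 over all features. Other gene lists gave 0.216 (21 skeletal muscle genes), 0.141 (21 further lens genes), 0.131 (17 skin and cornea epithelium genes) and 0.0377 (33 photoreceptor genes). With the means of group and dye orientation removed, it was 0.703 within beta, 0.507 within gamma, 0.137 within alpha, 0.342 within skeletal muscle and 0.225 within the lens list. Beta with gamma members gave 0.298, and 0.577 after that removal. These are descriptions over arrays that share control samples, and near-identical gamma M genes may share probe signal; no test was made. AgNO3 replicate 1 shows the pattern with 7 of 43 members above 0, and AgNO3 replicate 2 with 41 of 43.

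Other lens genes varied with the beta and gamma crystallins. A list of 25 further lens genes, which hold the fiber cell channels, filaments and transcription factors, was chosen with earlier results of these data known; 24 were on the array and 23 were tested. Over the 21 of them with 12 values, the mean r was 0.271 with beta crystallins and 0.170 with gamma crystallins, while alpha crystallins gave 0.215 with beta and 0.185 with gamma. The 33 photoreceptor genes with 12 values gave -0.06 with beta and -0.01 with gamma. No difference between these values was tested. The median of the lens list was -0.19, 0.15, 0.13, -0.14, 0.20 and 0.09 on the AgNO3 arrays, and 0.05, -0.09, -0.00, 0.04, 0.08 and 0.01 on the AgNPs arrays. It had the sign of the beta median on all 12 arrays, and of both the beta and the gamma median on 9 of 12. The part of lens size, or of the share of lens in each sample, in the crystallin values was not tested.

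None of the 23 lens genes passed the test in any comparison, with 16 of 23 above 0 for AgNO3, 13 of 23 for AgNPs and 13 of 23 for the difference. The claudin-like fiber membrane gene lim2.2 averaged 0.55 (SE 0.19) for AgNO3, and -0.60 with the Cy3-exposed arrays turned. The transcription factor gene sox1a, whose mouse counterpart acts in lens fibers, averaged 0.17 for AgNO3 and 0.22 for AgNPs (SE 0.08 each), and was above 0 on 6 AgNO3 and 5 AgNPs arrays. With the Cy3-exposed arrays turned it averaged -0.06 for AgNO3 and -0.04 for AgNPs. The lens transcription factor gene pitx3 averaged -0.21 (SE 0.11) for AgNO3, and 0.21 with those arrays turned. Among the others, lenep averaged 0.19 for AgNPs and was above 0 on all 6 of its arrays, lim2.1 averaged 0.18 for AgNPs, and the differences were -0.25 for lim2.1, 0.18 for lim2.3 and 0.30 for lctla. Of the small heat shock genes outside the crystallins, 8 of 9 were below 0 for AgNO3 (median -0.08) and 6 of 9 for AgNPs (median -0.02), with no call.

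Several gamma M crystallins followed the dye that the exposed RNA carried. The dye term of the fit, the distance of the Cy5-exposed arrays from the midpoint of both orientations, passed a limma adjusted p under 0.05 for 4 of 44 crystallins, or 9.09%, against 0.285% of all features. On the list of further lens genes, 1 of 23 tested genes passed it too. The dye term was examined after the data had been seen. Leaving out 1 array gave between 1 and 5 crystallin calls, always with crygm2d3 and in some cases with crygm2d4, crygm2d7 or crygmx, and the fit with the control sample code as a block left 0. The 4 genes were crygm2d3 with 0.94 (SE 0.09, adjusted p = 0.00526), crygm2d2 with 0.78 (SE 0.12, adjusted p = 0.0264), crygm2d10 with 0.78 (SE 0.12, adjusted p = 0.0271) and crygm2d12 with 0.90 (SE 0.15, adjusted p = 0.0419). Their mean pairwise Pearson r was 0.931, and 0.712 with the means of group and dye orientation removed. Probes of such near-identical genes may share signal, so these calls may not be separate results.

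At an unadjusted p, 15 of 44 crystallins passed for the dye term, against 10.3% of all features. These were 8 with a positive value, against 4.79% of all features, and 7 with a negative one, against 5.47%. They comprised 5 beta and 10 gamma genes, and no alpha gene. Among the negative ones were crygmx with -0.54 and the beta genes cryba1l with -0.36, cryba4 with -0.33, crybb1l2 with -0.31 and crybb1 with -0.29.

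The same 4 genes were those of 40 with 12 values whose sign followed the dye on all 12 arrays, against 1.03% of all features. That count was read from the same values as the dye term and adds no separate support to it. Across the Cy5-exposed and Cy3-exposed arrays, crygm2d3 averaged 1.15 and -0.74, crygm2d12 1.02 and -0.78, crygm2d10 0.89 and -0.66, and crygm2d2 0.82 and -0.74. The gene crygm2d2 had 0.45, 1.60, 1.14, -1.04, -0.92 and -0.86 on the AgNO3 arrays, and 0.67, 0.63, 0.40, -0.47, -0.10 and -1.03 on the AgNPs arrays. The gene crygm2d12 had 0.24, 2.14, 0.97, -0.98, -0.93 and -0.97 on the AgNO3 arrays, and 1.28, 0.97, 0.52, -0.49, -0.15 and -1.16 on the AgNPs arrays. The first 3 arrays of each group were positive and the last 3 negative without exception for these genes, with probes averaged. The genes crygm2d2, crygm2d10 and crygm2d12 are read by 1 probe each. Of the 2 probes of crygm2d3, 1 read 0.07 and 0.03 on AgNPs replicates 5 and 6, where the other read -0.48 and -0.95. Close behind were crygm2d4, with 0.91 and -0.46, and crygm2d7, with 0.81 and -0.85.

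**Figure D4:**
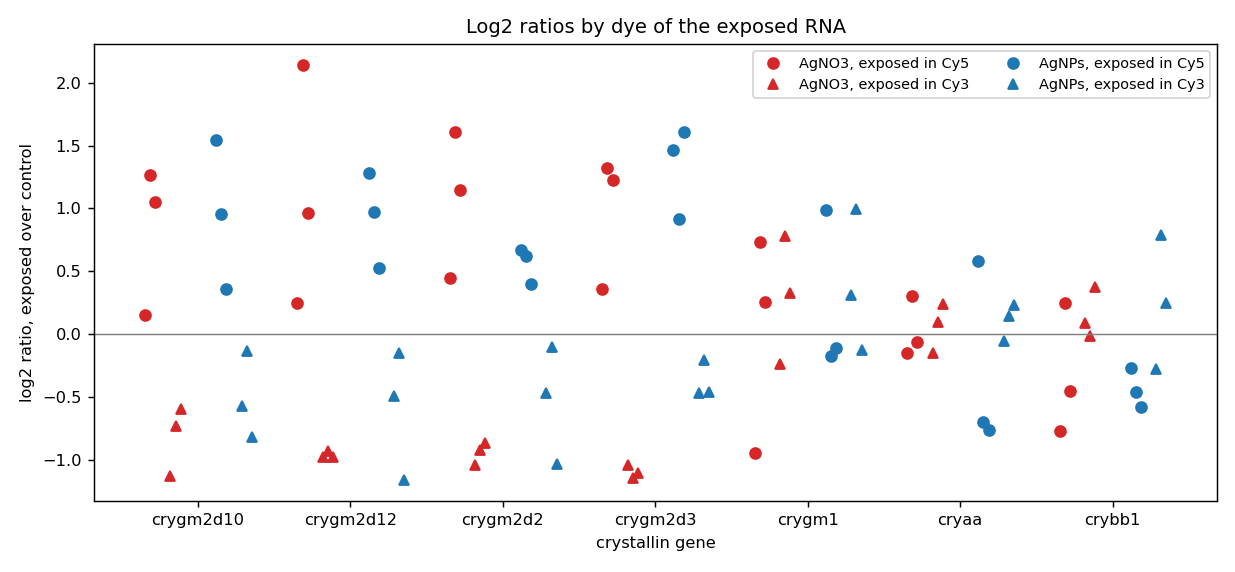
Log2 ratio of exposed over control RNA on each array, by the dye of the exposed RNA, for the crystallins past the dye threshold and for crygm1, cryaa and crybb1, shown for contrast and chosen after their values were seen. The 4 called genes lie above 0 on the 6 Cy5-exposed arrays and below 0 on the 6 Cy3-exposed arrays. The contrast gene crybb1 is not free of a dye pattern: it averaged -0.38 on the Cy5-exposed and 0.20 on the Cy3-exposed arrays.

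If the Cy3-exposed arrays had not been turned before deposit, these values would lie on 1 side of the control on all arrays. With those arrays turned, crygm2d2 averaged 1.00 (SE 0.14, limma adjusted p = 0.0777) for AgNO3 and 0.55 (SE 0.14, adjusted p = 0.523) for AgNPs. The gene crygm2d3 then averaged 1.03 (SE 0.17, adjusted p = 0.0876) for AgNO3 and 0.85 (SE 0.17, adjusted p = 0.265) for AgNPs. Under that reading no crystallin passed for AgNO3, for AgNPs or for their difference. The dye term of the main fit would then be the mean over both exposures, and for that term the 4 genes above passed. Dye bias of the probes and a response in 1 direction cannot be told apart here.

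The gamma M genes lie close together in the genome. In the gene order of the RefSeq assembly GRCz12tu, used for neighbours alone, 21 of 25 gamma M members have another crystallin gene as a direct protein-coding neighbour, and 22 of 25 lie on a single chromosome. All 4 genes that followed the dye have such a neighbour. Among all 45 members 29 do, 6 of them alpha or beta genes. Probe sequences were not used here, so a probe named for 1 crygm2d gene may also read its near-identical copies, and values of single crygm2d genes are uncertain in that respect.

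After the probe names were updated, 5 more crystallins were found beside the 45: cryba1l2, crygm2d14, crygm2d17, crygm2d18 and crygm2d20. The gene crygm2d14 had 0.56, 1.48, 1.34, -0.99, -1.19 and -1.05 on the AgNO3 arrays, and 2.53, 0.96, 1.12, -0.66, -0.39 and -0.97 on the AgNPs arrays. It too followed the dye, with a dye term of 1.103 (SE 0.13, limma adjusted p = 0.00716). The gene crygm2d17 was also above 0 on 6 Cy5-exposed and 0 Cy3-exposed arrays. Its dye term of 0.85 (SE 0.16, limma adjusted p = 0.0649) did not pass. For crygm2d20 these counts were 6 and 1, with a dye term of 0.55. The dye terms of cryba1l2 and crygm2d18 were -0.02 each. None of the 5 passed the test in either exposure or in the difference, and with all 50 genes the count of crystallins past the dye threshold was 5.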

How the data were processed

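The deposited values are log ratios of both channels for 43603 probes on 12 two-colour arrays. The authors' scale is not named per the labels or headers, and values (-8.02 to 7.67) were taken as log2 of exposed over control. Per the labels' protocols, 200 ng of Trizol-extracted total RNA was labelled with Cy3 or Cy5; how the arrays were scanned, normalized and filtered is not given in the labels. Spot intensities were not used here, so signal above background could not be checked, and precision is limited by the number of arrays. It is also limited where probes of different genes had the same value on an array. On AgNPs replicate 3, for example, probes of cryba1l, crygm4, crygm7 and crygs2 all read 0.0216895. What such shared values stand for was not tested.

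Probes were named through the platform annotation. Of them 30186 had 1 symbol, 13417 had none and no probe had several. Symbols were updated through the RefSeq table: 24749 by accession, 4278 by symbol and 1133 by synonym, with 26 kept. Members were chosen by the annotation's own symbol. A gene's probes were averaged per array (26 crystallins had over 1 probe), and 5.18% of crystallin probe values were empty, against 8.07% of all. Features needed values on at least 2 arrays of each dye orientation in each group.

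limma 3.58.1 in R 4.3.3 was fitted to all 12 arrays with a mean per exposed group and a dye-orientation term, with eBayes and Benjamini-Hochberg adjustment over 25264 features at 0.05. The fit was tested on simulated data. Control samples shared between comparisons were not modelled, except as an alternative.

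Genes described one by one were all alpha, gamma N and gamma S members and, of beta and gamma, the 6 with the smallest p of the difference and the 3 with the smallest p in each exposure, and for the lens list the 3 with the smallest p per comparison. Genes of the dye term, of single-array values and of the updated names were chosen after their values were seen. The members and lists were chosen with earlier results of these data known. Same-numbered arrays of both groups had deviations that correlated at -0.0431 on average over 17584 features (-0.147 to 0.0127), so the numbers were not taken to pair samples. Arrays of both groups with the same control sample code correlated at 0.0248 on average (-0.0172 to 0.0694). That both comparisons share controls rests on the sample codes alone.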

Additional observations from a re-analysis of the deposited data

Results flagged for a closer look

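In 8 of 50 checked groups of arrays, mostly of 6, 1 array lay far from the others by Dixon's criterion. With normally distributed values chance meets it in about 1 of 20 groups. Whether these values are so distributed was not checked, so the count does not show an excess over chance. On AgNO3 replicate 3, cryaba stood at -0.69 while the other arrays of the group lay between -0.07 and 0.05, and crygs2 stood at -1.33, with the others between -0.10 and 0.20. On the same array crybb1l3 stood at 1.36, with the others between -0.10 and 0.22. On AgNO3 replicate 4, cryabb stood at -1.25, with the others between -0.10 and -0.00. On AgNO3 replicate 2, crygm4 stood at 3.16, with the others between -0.05 and 0.70. On AgNPs replicate 1, crybb2 stood at 2.86, with the others between -0.06 and 0.40, and the alpha crystallin median stood at 0.19, with the others between -0.03 and 0.05. On AgNPs replicate 2, crygs1 stood at -1.02, with the others between -0.05 and 0.07.

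For cryaba, cryabb, crybb2 and crygs2 the value rested on 1 probe, while another probe of the gene on the same array lay within 0.40 of the control level. Whether these are spot defects was not tested.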

How the results depend on the processing

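The 3 counts of crystallins called in the group comparisons were 0 under each alternative run. The dye count was 4. It was 0 with the AgNO3 arrays alone, 0 with the AgNPs arrays alone, 0 with the control sample code as a block and 0 with AgNPs replicates 3 to 6 left out. The last of these settings keeps no Cy3-exposed AgNPs array, so its dye term came from the AgNO3 arrays alone. The dye count was 1 with arrays scaled to a common interquartile range, 2 with array weights and 7 with only features complete on all 12 arrays. Leaving out 1 array gave 1 to 5, with crygm2d3 called each time: 1 without AgNO3 replicate 3, 5 or 6 or AgNPs replicate 2, 4 or 6, and 2 without AgNO3 replicate 4 or AgNPs replicate 1 or 5. The alpha median for AgNO3 (-0.12) was -0.015 with the Cy3-exposed arrays turned, and -0.159 to 0.0045 without 1 array (the highest without AgNO3 replicate 3). The alpha median of the difference (-0.14) was 0.18 with them turned, -0.042 with AgNPs replicates 3 to 6 left out, and -0.187 to -0.024 without 1 array. The cause was not tested, beyond fewer arrays where they were left out. The replicate block, by a number not taken to pair samples, gave 0 called crystallins in each comparison and a gamma median of 0.04 for AgNO3 and 0.17 for AgNPs. Uncalled class medians and single genes often turned sign with the Cy3-exposed arrays turned or without 1 array, as given beside their values. Of the other 290 values of these results, all moved by less than 1 SD between arrays or less than 1.5 times; for single genes 1254 did and 14 did not. Missing probe intensities leave signal over background unknown.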
